A study of Homo sapiens with 6 samples.

Results

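The array used to profile KYSE30 cells carries several families of probes, and the results here concern the 4618 oligonucleotide probes from the Agilent catalogue whose identifiers begin with A_19_P or A_21_P. They were chosen by identifier alone, from the 75149 probes for RNAs on the array, of which they make up 6.15%. Another prefix, A_22_P, was searched for in the same way and matched 0 probes. The 602 A_19 and 4016 A_21 probes are set beside 11605 probes of the A_23_P catalogue series and 38141 probes whose identifiers begin with p. Each A_19 and A_21 probe was printed as 2 spots, none of which was saturated.

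KYSE30 is a cell line derived from an esophageal squamous cell carcinoma (ESCC). Cells that stably overexpressed the lncRNA *Epist* from a lentiviral vector (pCDH-MSCV-MCS-EF1-GFP+Puro) were compared with control vector cells, to find transcripts whose level changes with *Epist*. The methods describe the control construct as encoding blank RNA. Both lines were grown in RPMI 1640 with serum, GFP-positive cells were kept under puromycin, and each group had 3 biological replicates. On each of 3 arrays, 1 control RNA labelled with Cy3 was hybridized together with the *Epist* RNA of the same replicate number labelled with Cy5. Since no array had the dyes exchanged, the dye and the group cannot be told apart in any difference below. All cells of the *Epist* group descend from 1 overexpressing line, and the controls come from a control vector line made in the same way. The replicates measure these lines, so the line and the group cannot be told apart either. That the RNA of the *Epist* samples holds more *Epist*, and that the cells hold squamous markers, was not analysed here. The A_19, A_21 and A_23 probes came without gene names, and the p probes were not searched for *Epist*.

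Long noncoding RNAs are transcripts that are not translated. Many are spliced and polyadenylated like mRNAs, but as a class they are less abundant, more restricted to particular cell types and more often kept in the nucleus. An array probe reports the amount of labelled cDNA that it binds, so a probe for a rare transcript gives a signal near that of spots without a target. The A_19 and A_21 series of the catalogue were made largely for long noncoding transcripts, whereas the A_23 series was made largely for well annotated protein-coding genes. Because the level of 1 probe cannot be set against that of another as an amount of RNA, differences between the families describe signals and not transcript numbers.

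Of the A_19 and A_21 probes, 52.2% gave a signal well above background in the average control sample and 63.8% in the average *Epist* sample. A probe was counted as detected in a sample where the scanner software marked at least 50% of its spots as well above background. Together, the A_19 and A_21 probes were detected at 52.4%, 52.1% and 52.1% in control replicates 1, 2 and 3, and at 62.1%, 64.1% and 65.2% in *Epist* replicates 1, 2 and 3. The mean share was 52.2% ± 0.169 (SD, n = 3) in the controls and 63.8% ± 1.55 (SD, n = 3) in the *Epist* samples. All *Epist* samples lay above all controls, a difference of 11.6 percentage points and the two-sided exact permutation p was 0.1. A design of 3 samples against 3 cannot give a smaller value. Over all 75149 probes the corresponding shares were 59.2% and 70.2%, a rise of 11.0 points. By family the rise was 6.82 points for A_23, 9.14 for A_19, 12.02 for A_21 and 13.6 for p probes. The spots without a target moved with the channel as well. Their median processed signal was 8.23, 7.83 and 7.74 in the Cy3 channel of arrays 1, 2 and 3, against 4.29, 3.62 and 3.21 in the Cy5 channel. Their part in the difference in detection was not tested.

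The 2 catalogue series differed from each other in detection. Among the A_19 probes, 69.9% ± 1.16 (SD, n = 3) were detected in the controls and 79.1% ± 1.36 in the *Epist* samples, while the A_21 probes reached 49.5% ± 0.0863 and 61.5% ± 1.58. The A_23 probes were detected at 77.5% ± 0.174 in the controls and 84.3% ± 0.961 in the *Epist* samples, and the p probes at 47.1% ± 0.473 and 60.7% ± 2.05. The order was the same in each of the 6 samples, with A_23 first, A_19 second, and A_21 slightly above the p probes, by 0.480 to 2.97 percentage points. The share of A_19 probes minus that of A_23 probes was -8.95 to -5.01 points, and minus that of p probes it was 17.8 to 24.5 points. For the A_19 and A_21 probes combined, the share minus that of the A_23 probes was -25.4 points ± 0.303 (SD, n = 3) in the controls and -20.5 points ± 0.593 in the *Epist* samples. This gap differed between the groups by 4.82 points, with no overlap of the samples and an exact permutation p of 0.1, again the smallest possible. Against the p probes the gap moved the other way, from 5.05 points ± 0.639 (SD, n = 3) in the controls to 3.08 ± 0.530 in the *Epist* samples. The change was -1.97 points, also without overlap and with an exact permutation p of 0.1. Detection rose in every family, and by less in families with a higher control share. No difference between families is therefore read from the changes in these gaps.

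Seen probe by probe, 2169 of the 4618 (47.0%) were detected in all 6 samples and 1336 (28.9%) in none. A further 545 (11.8%) were detected in all 3 *Epist* samples and in fewer than 3 controls, whereas only 2 were detected in all controls and in fewer than 3 *Epist* samples. The remaining 566 probes were detected in some samples without filling either group. The other families leaned the same way, since 7.12% of the A_23 probes and 13.3% of the p probes were detected in all *Epist* samples and not in all controls, against 0.0259% and 0.0157% the other way. Over all 75149 probes the shares were 11.0% and 0.0160%. Among the 545, a set of 220 gave no signal well above background in any control, which leaves only a bound on their change. They were 4.76% of the 4618, against 5.30% for this pattern over all probes. The bound sets the *Epist* mean against the control mean of, on each array, the higher of the probe's own signal and the lowest signal among probes well above background. After normexp background correction, loess and Aquantile normalization, the bounds had a median of 0.074 on the log2 scale. Of the 220, 164 were above 0, and the largest was 1.21-fold. The 220 were selected through the group in which they were detected, so the direction of their bounds is no result. In the median probe the control signal of 6.54 on the log2 scale lay above the lowest signals well above background, which were 5.99, 6.14 and 6.13 on arrays 1, 2 and 3, so the bound was often the measured fold and is then no strict lower limit. The offset of 50 used in normexp compresses the folds of dim probes, so these low bounds do not show that the changes were small. A bias of the dyes would enter these bounds, and it was not tested.

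In signal, the A_19 and A_21 probes lay far below the A_23 probes and close to the p probes. The signal of a probe is the log2 of the processed intensity, averaged over its spots and quantile normalized across the 6 samples. The median over the 4618 probes was 5.19, 5.19 and 5.21 in the control replicates and 5.15, 5.16 and 5.17 in the *Epist* replicates. The samples of the 2 groups did not overlap, but the group means of 5.20 ± 0.0083 and 5.16 ± 0.0080 (SD, n = 3) differed by little on the log2 scale. The order of the groups was opposite before quantile normalization, with medians of 5.17 ± 0.0041 in the controls and 5.19 ± 0.0059 in the *Epist* samples, so no direction can be read from it. The median A_23 probe had a log2 signal of 8.05 in the controls and 8.04 in the *Epist* samples, and the median p probe 4.98 and 4.99. The A_19 series alone had medians of 7.08 and 7.07, nearer to the A_23 than to the p probes, and the A_21 series 4.93 and 4.86.

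The low median of the A_21 series came with a wide range. In control replicate 1, the lower quartile of the A_21 probes was a log2 signal of 2.72 and the upper quartile 7.57, and the brightest reached 16.84. Between 96 and 103 of the A_21 probes, depending on the sample, exceeded a log2 signal of 12. A filter for testing kept 2716 of the probes, those well above background in all 3 samples of either group or both, and raised the median to 7.35 ± 0.0093 (SD, n = 3) in the controls and 7.34 ± 0.013 in the *Epist* samples. The A_23 probes kept by the same filter had medians of 8.75 and 8.74, so the difference from them was -1.40 on the log2 scale in both groups.

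Detection also varied within each series with the number in the identifier. Among A_21 probes numbered 11000 to 11999, 73.9% ± 1.45 (SD, n = 3) were detected in the controls, and the median log2 signal over the 6 samples was 7.25. Among those numbered 2002 to 2985, the share was 28.9% ± 1.24 and the median signal 3.23. The blocks numbered 1 to 999 and 1000 to 1999 had control shares of 63.5% and 42.3%. The blocks of 1000 numbers from 2002 up to 8978 all had control shares between 28.9% and 39.8%, and those above 10032 all had shares between 54.9% and 73.9%. The A_19 probes fell into 2 runs. The 437 probes numbered 315459 to 329711 had a control share of 66.9% ± 1.15, and the 165 numbered 800006 to 813544 a share of 78.0% ± 1.26. Among tested A_21 probes, the 652 pairs with adjacent numbers had a correlation of 0.33 in log2 signal, against 0.066 for 1837 pairs that lay 10 tested probes and at most 100 numbers apart. For the log2 fold change the correlation of adjacent pairs was 0.098, against -0.0098 for the distant pairs. Among tested A_19 probes, 28 adjacent and 11 distant pairs gave 0.56 and 0.085 in log2 signal. In log2 fold change these A_19 pairs gave 0.023 and 0.15. These correlations are across probes of the same samples, and whether adjacent probes share a transcript was not tested.

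The spread between replicates was larger among dim probes. Among the tested probes with a log2 signal below 8, the median SD between the 3 controls was 0.20 and that between the 3 *Epist* samples 0.17. Between 8 and 12 the medians were 0.10 and 0.12, and above 12 they were 0.11 and 0.12. Without regard to signal, the A_19 and A_21 probes had median SDs of 0.15 in the controls and 0.15 in the *Epist* samples, against 0.12 and 0.13 for A_23 probes. To set the families side by side at the same signal, the tested probes were sorted into bins of 1 log2 unit, and each family was weighted to the distribution of the A_19 and A_21 probes over the bins. The 11 bins from 3 to 14 held at least 20 probes of each family and 2690 of the 2716 probes. At matched signal the median SD between controls was 0.177 for the A_19 and A_21 probes, 0.173 for A_23 probes and 0.168 for p probes. Between *Epist* samples the medians were 0.153, 0.149 and 0.151. The ratio of the A_19 and A_21 probes to the other families thus lay between 1.01 and 1.05. The SD between the spots of a probe on an array was also close, at 0.156 in the control channel against 0.152 for A_23 and 0.170 for p probes, and 0.120 in the *Epist* channel against 0.119 and 0.128.

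Much of that spread was shared by the 2 samples of an array. The deviations of the control and the *Epist* sample from their group means had correlations of 0.67, 0.69 and 0.69 across the 2716 probes on arrays 1, 2 and 3. For A_23 probes the values were 0.56, 0.52 and 0.63, for p probes 0.58, 0.68 and 0.63, and for all tested probes 0.60, 0.63 and 0.65. In a few bright probes the arrays differed by several log2 units, in both channels. Among the 1086 tested A_19 and A_21 probes at or above a mean log2 signal of 8, 17 (1.57%) had an SD over 0.5 in both groups, and in all 17 the same array stood apart in both groups. The share was 0.615% among A_23 probes, 1.56% among p probes and 1.14% among all tested probes of the same signal. The same array stood apart in both groups in 32 of 36 such A_23 probes, 97 of 108 p probes and 232 of 257 over the whole array. The pattern was thus common to the families.

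The values of 6 of the 17 are given, those with the widest SD between controls, chosen after their values were seen. A_21_P0000108 had log2 signals of 9.83, 13.99 and 15.40 in control replicates 1, 2 and 3, and 9.94, 14.26 and 15.74 in *Epist* replicates 1, 2 and 3. A_21_P0000106, a near neighbour in number, had 9.90, 13.28 and 15.71 in the controls and 10.27, 13.53 and 15.41 in the *Epist* samples. A_21_P0000109 had 4.35, 7.60 and 11.61 in the controls and 5.05, 8.03 and 11.64 in the *Epist* samples. On no array did these neighbours differ between the groups by more than 0.70, but they spanned 5.14 to 7.26 log2 units between the arrays, always lowest on array 1 and highest on array 3. A_21_P0009030 followed another order, with 6.01, 12.07 and 6.26 in the controls and 6.30, 12.53 and 7.00 in the *Epist* samples, so that array 2 stood apart. A_19_P00317447 had 10.71, 11.67 and 13.28 in the controls and 10.71, 11.59 and 13.53 in the *Epist* samples, again highest on array 3. A_21_P0003244, among the brightest of all, had 16.73, 16.42 and 14.47 in the controls and 17.11, 16.23 and 14.51 in the *Epist* samples, with array 3 the lowest. The spots of each of these 6 probes differed far less than the arrays, with a highest SD between spots of 0.551 over the 6 samples. In 4 of the other 11 probes, the highest SD between spots, 0.985 to 1.97, exceeded the SD between replicates in both groups. Whether the arrays or the cultures differed was not tested. In limma without the replicate block, 0 of the 257 probes of the whole array with such SDs were called, the 17 included, but the choice by a high SD nearly fixes that outcome. With the block, the calls among the 6 probes described above were A_21_P0000109, A_21_P0009030 and A_21_P0000108, with adjusted p-values of 0.0375, 0.00557 and 0.0361 in limma. In that fit 9.82% of all tested probes were called higher, so nothing is read from these calls.

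In the comparison of the cells with *Epist* and those with the control vector, more A_19 and A_21 probes passed the adjusted threshold as lower than as higher in *Epist*, as was the case for all probes of the array. Their number depended on whether the shared array entered the fit, and the fit without it is given first. The log2 fold change, *Epist* minus control, lay within 0.5 of 0 for 92.0% of the 2716 tested probes, with a median of 0.031. At an adjusted p under 0.05 in limma, 27 probes were higher in *Epist* and 68 were lower, which is 0.994% and 2.50% of those tested. Over all 50004 tested probes 1.81% were higher and 2.83% lower, so the share called higher was below that of the whole array and the share called lower was near it, a difference that was not tested. By series, 8 of 454 A_19 probes were higher and 15 lower, and 19 of 2262 A_21 probes were higher and 53 lower. With the additional requirement of a 2-fold change, 0 probes were higher and 8 were lower in limma, against 0.086% and 0.196% of all tested probes. At an unadjusted p under 0.05 in limma, 7 of the probes (0.258%) were higher and 9 (0.331%) lower by at least 2-fold, against 0.264% and 0.216% of all tested probes.

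All 27 probes called higher were well above background in all 6 samples, with a median log2 signal of 9.75 and log2 fold changes from 0.34 to 0.72. Of the 68 called lower, 67 were well above background in all 6 samples. Their median log2 signal was 8.28, and their log2 fold changes ran from -2.06 to -0.37. Because the tested probes include some that passed through 1 group only, the fit was repeated on probes well above background in both groups. There, 36 of 2169 A_19 and A_21 probes were higher and 89 lower at an adjusted p under 0.05 in limma, against 2.56% higher and 4.13% lower among all probes of that fit.

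By the rule for named probes, the largest decreases were those of A_21_P0014918 and A_21_P0011349. A_21_P0014918 had normalized log2 signals of 12.66, 12.45 and 12.17 in the control replicates and 10.49, 10.47 and 10.14 in the *Epist* replicates. Every *Epist* sample lay well below every control, and the ratios of the arrays were -2.17, -1.97 and -2.02 on the log2 scale. A_21_P0011349 had log2 signals of 12.90, 12.72 and 12.88 in the controls and of 11.31, 11.18 and 11.25 in the *Epist* samples. It fell by 1.58 on the log2 scale (standard error 0.081), with an adjusted p of 0.000384 in limma. Both were bright probes detected in every sample, and among all called decreases on the array they ranked 2 and 9 by size. The other 6 probes called lower by at least 2-fold had log2 fold changes between -1.53 and -1.04 and adjusted p-values between 0.00145 and 0.0262 in limma. They were dimmer, with control means between 5.51 and 9.90 on the log2 scale. In each of the 6, all *Epist* samples lay below all controls. With normexp, loess and Aquantile normalization, 4 of the A_19 and A_21 probes were called lower by at least 2-fold in place of 8.

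The largest called increases were smaller. A_21_P0010941 had log2 signals of 10.27, 10.38 and 10.14 in the controls and 11.14, 11.03 and 10.77 in the *Epist* samples. Its groups did not overlap, and its log2 fold change was 0.72 (standard error 0.11, adjusted p 0.0167 in limma), an increase of 1.64-fold. A_19_P00806947 had log2 signals of 9.98, 9.94 and 9.84 in the controls and 10.70, 10.60 and 10.56 in the *Epist* samples. It rose by 0.70 on the log2 scale (standard error 0.081), with an adjusted p of 0.00721 in limma. Both were detected in all 6 samples, and they ranked 156 and 181 among all called increases on the array. Tested alone, each of the 4 named probes had a two-sided exact permutation p of 0.1, the lower limit of this design. The probes were chosen by their difference between the same samples, so this outcome was nearly fixed and adds no support. The same holds for the lack of overlap in these 4 and in the other 6 probes called lower by at least 2-fold.

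With the replicate number as a block, which compares the 2 samples of each array, more probes were called. In that fit 227 of the 2716 probes were higher and 284 lower at an adjusted p under 0.05 in limma, against 9.82% higher and 10.7% lower over all tested probes. They included all 27 and all 68 probes called without the block. At 2-fold the block gave 5 probes higher and 9 lower, where the array as a whole had 0.236% and 0.218%. None of the 5 probes higher was well above background on all 3 control arrays, and 4 were not well above background in any control. Their control means lay between 2.76 and 4.36 on the log2 scale, so their increases rest on signals near that of spots without a target. With 2 thresholds set here, 0.05 on the unadjusted p and 2-fold on the change, the two-sided test named in the methods (the methods' t-test) called 7 probes higher and 9 lower, against 0.196% and 0.21% of all tested probes. Again none of the 7 was well above background on all control arrays, whereas all 9 lower probes were. The filter nearly fixes this contrast, since 545 probes passed it through the *Epist* samples only and 2 through the controls only. Nothing is therefore read from it. The lower probes that are not named had *Epist* means between 3.69 and 8.70 on the log2 scale, so some of them were dim as well. At an adjusted p under 0.05 over all tested probes and without a fold threshold, the methods' t-test called 3 higher (0.110%) and 5 lower (0.184%), against 0.114% and 0.17% of all tested probes.

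When any 1 replicate was left out of the fit without the block, 0 probes were called higher and between 1 and 2 lower, and over all 50004 probes 2 to 3 were higher and 1 to 12 lower. With the block, the counts without replicates 1, 2 and 3 were 140, 241 and 114 higher and 200, 319 and 157 lower. The shares called higher were then 5.15%, 8.87% and 4.20%, against 6.04%, 10.4% and 4.74% of all tested probes. Those called lower were 7.36%, 11.7% and 5.78%, against 7.35%, 11.3% and 5.88%, so the counts moved with those of the whole array. A_21_P0011349 kept an adjusted p of 0.0351, 0.0471 and 0.0366 in limma without replicates 1, 2 and 3. A_21_P0014918 had 0.0520, 0.0987 and 0.0113, with log2 fold changes of -1.998, -2.10 and -2.07. The 2 named increases had adjusted p-values between 0.0977 and 0.142 in limma, with log2 fold changes between 0.64 and 0.76. The sizes thus changed little, while each of these fits had fewer samples.

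The families were next compared in their change at matched signal. The median absolute log2 fold change was 0.170 for the A_19 and A_21 probes, 0.180 for A_23 probes and 0.160 for p probes. In the same bins, 0.967% of the A_19 and A_21 probes were called higher, against 1.97% of A_23 and 1.48% of p probes. For probes called lower, the shares were 2.42%, 4.01% and 2.17%. With the block, 8.33% were called higher, against 10.1% of A_23 and 9.31% of p probes, and 10.4% lower, against 13.0% and 8.73%. These shares are descriptions of single fits, and the differences between families were not tested.

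In the bin from 3 to 4, the dimmest used for matching, the median log2 fold change was positive in every family, at 0.56 for 33 A_19 and A_21 probes, 0.64 for 48 A_23 probes and 0.58 for 121 p probes. In the next bin it was 0.10, 0.16 and 0.14. A probe this dim could enter the test mainly through the *Epist* channel, where more probes passed the background flag, so these medians are no result about the probes. From a log2 signal of 5 to 12 the median of the A_19 and A_21 probes stayed between -0.013 and 0.042. Of the 27 calls higher, 10 lay between 9 and 10 and 6 between 10 and 11, and 0 lay below 6.

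The difference between families at matched signal was compared over samples. The median signal of the A_19 and A_21 probes minus that of A_23 probes, weighted over the bins, was -0.056, -0.026 and -0.033 in the control replicates and -0.036, -0.042 and -0.036 in the *Epist* replicates. The samples of the groups overlapped, the arrays gave differences of 0.020, -0.016 and -0.0035 (*Epist* minus control), and the exact permutation p was 1. Against p probes the weighted difference was -0.0091, 0.0030 and 0.012 in the controls and -0.022, -0.033 and -0.030 in the *Epist* samples. Here the groups did not overlap, and the A_19 and A_21 probes shifted by -0.030 on the log2 scale relative to p probes, with an SD of 0.015 over the 3 arrays. The exact permutation p was 0.1, the smallest possible. The shift was negative on all 3 arrays. In those bins the median log2 fold change was 0.040 for the A_19 and A_21 probes, 0.021 for A_23 and 0.052 for p probes. The A_23 probes thus also lay below the p probes, so the shift is not particular to the A_19 and A_21 probes.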

How the data were processed

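RNA of KYSE30 cells with *Epist* or the control vector was measured in 3 replicates each on 3 two-colour arrays that lay on 1 slide, so a slide block was not run. The deposited files of samples with the same replicate number were identical, so these samples shared an array. The processed signal intensity of each spot, its median and background intensity and its flags on background, outliers and saturation (other values) were made by the authors with Feature Extraction (11.5.1.1 in the file headers, an earlier version in the methods), which subtracts background and scales the dyes. The deposited log2 values of the series were quantile normalized by the authors with limma, and used here as an alternative. For the tested probes described here they differed from the values computed here by at most 0.010. All per-sample columns of the table were matched to samples.

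Control and outlier spots were left out, and the log2 signals of the spots of a probe were averaged and quantile normalized (limma 3.58.1, R 4.3.3). The background flag was passed in all 3 samples of either group or both by 50015 probes. Of these, 50004 were fitted with lmFit and eBayes with a trend, and p-values were adjusted over them by Benjamini-Hochberg at 0.05. Leaving out outlier spots had removed 48 of the 75149 probes. Summaries and exact permutation tests used Python 3.11.15 and scipy 1.17.1. The fits were tested on simulated data with independent noise in each sample. Variation shared by the samples of an array was not simulated, so that test does not bear on the choice of the block. Replicate numbers pair the samples through the shared array, and deviations from group means correlated at 0.60, 0.63 and 0.65 over all tested probes. Named probes are the 2 highest and 2 lowest called with all 3 arrays in one direction. The probes, lists and tests were chosen with earlier results of these data known. Genes, gene lists, cell type markers and probe sequences were not analysed here, since no table used here pairs these probes with them. The number of arrays limits the precision. The alternatives were the replicate block, normexp (offset 50, on median signals) with loess and Aquantile, the signal as processed, a 75th percentile scaling, other filters (none, or both groups), the deposited values, outlier spots kept, no trend, the methods' t-test, other bins, other detection flags, and each replicate left out.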

Additional observations from a re-analysis of the deposited data

How the results depend on the processing

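With the replicate block the limma counts rose from 27 to 227 higher and from 68 to 284 lower, and from 0 to 5 higher at 2-fold. With the block, the 5 became 0 with normexp and 0 with the filter on both groups, and the 9 lower at 2-fold became 4 with normexp (combinations chosen after seeing the data). The filter on both groups leaves out all of the 5 by construction, since none was well above background in all controls. Leaving out 1 replicate gave 0 higher and 1 to 2 lower, and 1 to 2 lower at 2-fold, with fewer samples by construction. The count of 68 lower was 38 without further normalization, 31 without the filter, 27 without the trend, and 5 by the methods' t-test with Benjamini-Hochberg adjustment, which called 3 higher. The 0 probes higher at 2-fold became 2 with scaling to the 75th percentile, 2 without the filter and 1 without the trend. The 8 lower at 2-fold became 4 with normexp and 1 by the methods' t-test with adjustment. The methods' t-test at 2-fold called 7 higher, but 2 in the paired form (replicate block), 0 with normexp, 0 with the filter on both groups, 14 without the filter, and 1 to 6 with 1 replicate left out. The 0 with the filter on both groups was fixed in advance, since none of the 7 passed that filter. The 9 lower by the methods' t-test became 4 with normexp and 17 without the filter, and were 8 to 9 with 1 replicate left out. The share detected was 46.2% in the controls and 57.7% in *Epist* when all spots had to be well above background, and 74.2% and 82.4% by the flag for a positive and significant signal. The median signal was 5.17 and 5.19 without further normalization, and 7.35 and 7.34 over tested probes only. The causes were not tested. The shift at matched signal against A_23 probes lay between -0.0099 and 0.012 over 10 alternatives. That against p probes stayed negative, between -0.039 and -0.016, under all 10 alternatives. The 4 named probes kept their direction under every alternative. Beside the fits with a replicate left out, the call was lost by the methods' t-test with Benjamini-Hochberg adjustment for A_21_P0010941 (adjusted p 0.110), A_19_P00806947 (0.0570) and A_21_P0014918 (0.0575), and in limma without the filter for A_21_P0010941 (0.0514).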
